A study of Mus musculus with 8 samples.

Results

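The time course of inflammation in diabetic skin wounds was followed in single CD45+ cells on days 1, 3, 5 and 7. The cells were chosen as the barcodes of the 4 diabetic libraries with over 200 genes and under 20% mitochondrial UMIs (unique molecular identifiers, which count captured RNA molecules). This left 18022 cells of the 35158 in the whole series, with 4757, 5436, 4183 and 3646 on days 1, 3, 5 and 7. The mice were male C57BL/6J mice given streptozotocin (STZ), a toxin of the insulin-producing beta cells, at 120 mg/kg and 4 weeks of age, and they counted as diabetic from a blood glucose of 16.5 mmol/L. A full-thickness wound was cut on the back, the wounds of 5 mice were pooled for each day, and viable CD45+ leukocytes were sorted from the digested tissue. Control mice without diabetes had the same wound, days, pooling and sort. Because 1 library stood for each day, a difference between days was also a difference between libraries and between pools of mice, and these cannot be told apart. With 1 library per day a test between single days was not possible, and no trend over the 4 libraries was tested. Values are therefore given with exact 95% intervals that cover counting error only.

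In a skin wound, neutrophils enter from the blood within hours and release granule proteins and S100 alarmins. Monocytes follow and mature in the tissue into macrophages that clear dead cells and make growth factors, while dendritic cells and T cells take a larger part later. Diabetes is known for wounds in which the early, inflammatory state lasts longer.

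The 4 tables held between 19552414 and 25191944 UMIs, and the filter removed 6.85% to 10.8% of the barcodes. Cells of days 5 and 7 were deeper than those of days 1 and 3, with medians of 2965, 2691, 3571 and 4125 UMIs and 838, 972, 1058 and 1689 genes on days 1, 3, 5 and 7. The median mitochondrial share went from 0.725% on day 1 to 2.17% on day 7. Fibroblast markers, which a CD45+ sort should leave out, summed to 70.0, 20.1, 14.7 and 969 CPM (UMIs per 1000000 UMIs), so the library of day 7 held the most of them. Cells with over 1% of their UMIs in fibroblast markers numbered 2, 2, 0 and 7, and those with over 1% in plasma cell markers 1, 4, 0 and 1. Markers of B cells, erythroid cells, basophils and eosinophils stayed below 20 CPM per list on every day. Platelet markers summed to 199, 58.0, 69.2 and 30.3 CPM and plasma cell markers to 33.1, 426, 53.7 and 90.6 CPM. Keratinocyte markers reached 53.8 CPM, endothelial markers 46.2 CPM and plasmacytoid dendritic cell markers 331 CPM. A barcode shared by libraries could not be looked for, since the tables number their cells, but 0 cells of different libraries had identical profiles.

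Clusters were named from markers. Those of S100a8, S100a9, Csf3r and Cxcr2 were called neutrophil-like, and those of Ly6c2, Vcan, Chil3 and Ccr2 monocyte-like. C1qa, Apoe and Mrc1 marked macrophage-like cells, Cd209a, H2-Aa and Ccr7 dendritic cell-like cells, and Cd3e, Trac and Nkg7 T and NK cell-like cells. T and NK cells were taken as 1 class because the larger of its 2 clusters was led by genes of both. Neutrophil-like cells made up 51.5% (95% interval 50.1 to 53.0), 50.1% (48.8 to 51.5), 48.0% (46.5 to 49.6) and 21.7% (20.3 to 23.0) of the cells. Their share was nearly level over the first 3 libraries and lower on day 7.

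Monocyte-like cells held 35.8%, 12.3%, 10.4% and 5.95% of the cells, so that their largest step lay between days 1 and 3. The share of macrophage-like cells did not move in 1 direction, at 1.05%, 12.3%, 3.61% and 16%. Its difference between days 7 and 1, 15 percentage points, was 29.1 at the coarser clustering (resolution 0.4) and 23.1 with cells named singly, each by its own marker scores. Dendritic cell-like cells rose from 5.23% through 9.33% and 14.2% to 15.6%. T and NK cell-like cells rose from 2.54% through 3.44% and 14% to 21.4%, and the rest, which held mast cell-like, osteoclast-like and unnamed cells, was 3.85%, 12.5%, 9.73% and 19.3%. Most of the rest was 1 shallow unnamed cluster of 157, 610, 387 and 683 cells, with a median of 1303 UMIs. It was led by Gm26917, Lyz1 and Malat1, and the classes its cells belong to are not known. The genes used to name cells are no finding about the class they name. Of all cells, 10.4% had 2 marker scores within 0.1 of each other.

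**Figure D1:**
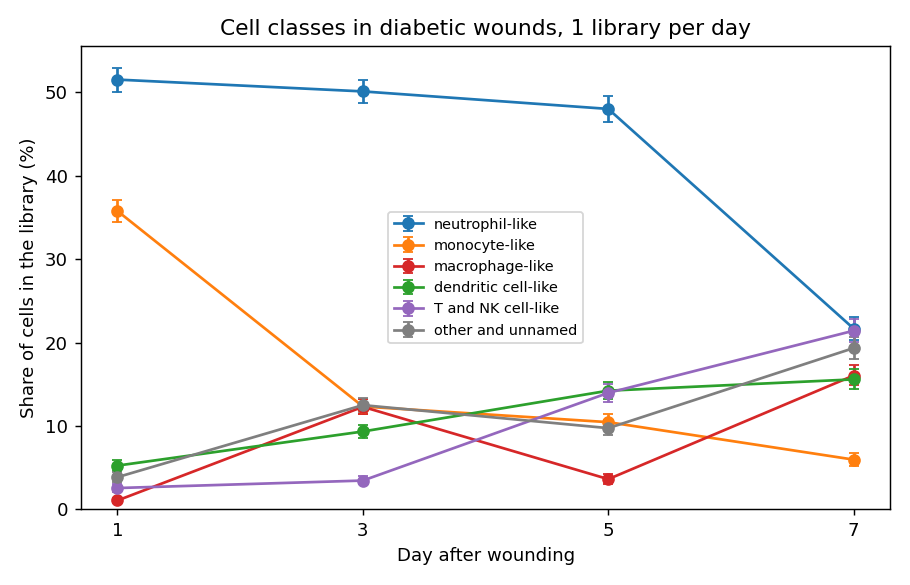
Share of each cell class among the cells of a library (%) against the day after wounding, with exact 95% binomial intervals as bars. Neutrophil-like cells stay near 50% until day 5 and are at 21.7% on day 7, monocyte-like cells are lower on each later day, and T and NK cell-like cells reach 21.4%.

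To find genes that rose, fell or peaked, UMIs were summed over all cells of a library and scaled to CPM. Of 20244 genes, 11468 had at least 100 UMIs over the 4 libraries and were classified. A gene was called rising when it did not fall from day to day and was at least 2-fold higher on day 7 than on day 1, and falling in the opposite case. A peak was a highest value on day 3 or 5 at least 2-fold above both end days, and a dip the mirror image. Each fold had to have an interval that left out 1. By this rule 1234 genes were rising (10.8%), 237 were falling (2.07%), 77 peaked (0.671%) and 163 dipped (1.42%), while 7193 were flat and 2564 varied in another way. With day 3 left out, and so 1 step fewer to meet, 2628 genes were rising and 478 falling, and with day 5 left out 2585 and 499.

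The median gene was higher on day 7 than on day 1 by a log2 of 0.55, against which every direction below should be read. With a scaling on the median gene in place of the UMI total, the split turned from 1234 rising and 237 falling genes to 448 rising and 581 falling genes. Of the falling genes, 148 (62.4%) took their largest step, as a difference in CPM, between days 1 and 3, 23 (9.70%) between days 3 and 5 and 66 (27.8%) between days 5 and 7. The rising genes were more evenly spread over the steps, with 413 (33.5%), 301 (24.4%) and 520 (42.1%) in the same order. On day 7, 911 (73.8%) of the rising genes had their highest level in T and NK cell-like cells and 227 (18.4%) in dendritic cell-like cells. On day 1, 196 (82.7%) of the falling genes were highest in neutrophil-like cells and 32 (13.5%) in monocyte-like cells. The same split was not computed over all classified genes, so these shares cannot be read as particular to rising or falling genes.

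In such sums, fewer cells of a type and less RNA per cell cannot be told apart. Each gene was therefore also given at fixed class make-up, with every class held at its mean share of UMIs over the 4 days. Macrophage-like cells held 1.48% of the UMIs on day 1 and 28.1% on day 7. Their weight on day 1 was therefore raised, though it rests on 50 cells. Cells outside the named classes were taken as 1 class, and a change of cells inside any class is not held fixed. Of the 1229 rising genes with a value at fixed make-up, 348 were still at least 2-fold higher on day 7, 784 were higher by less and 97 turned to the opposite direction, and their median log2 went from 1.54 to 0.66. Of the 237 falling genes, 127 kept a 2-fold fall and 0 turned, with a median log2 fall of 1.75 before and 1.12 after.

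Below, counts of cells with a UMI show only how many cells a level rests on. The 8 rising genes with the largest lower bound of their fold were Igf1, Penk, Bgn, Ikzf2, Tnfrsf4, Pclaf, Klrg1 and Mmp12. Igf1, the growth factor IGF-1, had 4.25, 27, 30.9 and 188 CPM on days 1, 3, 5 and 7, 44.2-fold (95% interval 35.5 to 55.7) higher on day 7 than on day 1. It remained 5.39-fold higher at fixed make-up, and its highest class was the macrophage-like one, where it had 142, 98.6, 291 and 503 CPM. Mmp12, the macrophage elastase, had 10.6, 48, 64.5 and 137 CPM and was 13-fold (95% interval 11.3 to 15.1) higher on day 7. On day 5, 1 cell held 36.6% of its UMIs, and without the top cell of each day the levels were 7.82, 46, 40.9 and 127 CPM, which no longer rose at each step.

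Penk, Ikzf2, Tnfrsf4 and Klrg1 were highest in T and NK cell-like cells. Penk, which encodes the precursor of enkephalins, had 1.84, 5.32, 8.34 and 75.7 CPM over all cells and 35.3, 93, 38.9 and 313 CPM in that class. Ikzf2, the transcription factor Helios of regulatory T cells, had 3.83, 8.03, 27.2 and 98 CPM, and Tnfrsf4, the costimulatory receptor OX40, had 4.83, 5.82, 31.5 and 107 CPM. Klrg1, a lectin-like receptor of differentiated T and NK cells, had 2.89, 4.87, 21.3 and 51.4 CPM. At a finer clustering (resolution 1.6), a T cell cluster led by Ctla4, Foxp3, Ikzf2, Tnfrsf4, Klrg1 and Penk held 6, 7, 46 and 209 cells, so 4 of the 8 named genes led a cluster with 78.0% of its cells on day 7.

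Pclaf, a partner of the replication clamp PCNA, took its largest step between days 1 and 3 with 2.0, 24, 29.8 and 39.8 CPM. Bgn, the matrix proteoglycan biglycan of connective tissue, had 1.42, 1.43, 1.68 and 55.3 CPM. Without fibroblast and plasma cells Bgn had 0.263, 1.15, 1.68 and 25 CPM and still rose. The 6 fibroblast markers were higher on day 7 in every leukocyte class too, with 273.8 CPM in neutrophil-like, 236 in monocyte-like, 350.1 in macrophage-like, 243 in dendritic cell-like and 252 in T and NK cell-like cells, where they were at most 46.1 CPM before. Their part in the rise of Bgn was not tested.

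The 8 falling genes were Ngp, Retnlg, Cd177, BC100530, Stfa2, Wfdc21, Ifitm6 and Ly6g, all highest in neutrophil-like cells on day 1. They include granule and surface proteins of neutrophils and members of the stefin A family of cysteine protease inhibitors. Ngp, the neutrophilic granule protein, had 542, 76, 2.66 and 0.930 CPM, and its level on day 1 was 582-fold (95% interval 377 to 954) that on day 7. Retnlg, which encodes the resistin-like gamma protein, had 3467, 1195, 216 and 86.8 CPM and was 39.9-fold (95% interval 38.1 to 41.8) higher on day 1. Both kept their direction at fixed make-up, with 262-fold for Ngp and 18.7-fold for Retnlg.

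Cd177, a surface protein of neutrophils, had 196, 31, 15 and 7.16 CPM, and Ly6g, the antigen by which mouse neutrophils are sorted, had 39.6, 14.7, 10.9 and 2.0 CPM. Wfdc21, a small secreted inhibitor-like protein, had 764, 340.5, 111 and 47.2 CPM, and Ifitm6, of the interferon-induced transmembrane family, had 585, 178, 97.7 and 38.2 CPM. Every step of these genes was downward. Stfa2 had 194, 89.6, 28.4 and 9.02 CPM and BC100530 had 60.7, 25.1, 10.3 and 2.51 CPM, but the stefin A genes are near-identical copies between which reads may have been split, so these 2 are uncertain.

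Of the genes named here that peaked, 3 had values that moved with 1 cell or 1 cluster. Jchain, the joining chain of antibodies, had 0.158, 41.6, 0.0466 and 0.0465 CPM, and 1 cell held 86.7% of its UMIs on day 3. Igkc, an antibody light chain, had 10.8, 229, 9.37 and 32.1 CPM with 69.6% of the UMIs of day 3 in 1 cell, and 2.0, 66.8, 9.37 and 31.8 CPM without fibroblast and plasma cells, which was still a peak. Ctsk, the collagen-degrading protease of osteoclasts, had 11.9, 354, 85.2 and 81.8 CPM, but 11.9, 111, 56.8 and 65.8 CPM without the osteoclast-like cluster, which was no longer a peak.

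Il23a and Trdc peaked on day 5 in many cells. Il23a, a subunit of the cytokine IL-23 that sustains IL-17-producing T cells, had 57.3, 99.5, 163 and 40.1 CPM, with UMIs in 745 cells on day 5. Trdc, the constant part of the gamma-delta T cell receptor, had 22.6, 37.4, 139 and 51.4 CPM and UMIs in 579 cells on day 5. Of the genes that dipped, Dcn, the fibroblast proteoglycan decorin, had 23.8, 4.46, 1.12 and 61.3 CPM, Tpsab1, a mast cell tryptase, had 33.7, 17.8, 2.0 and 13.1 CPM, and Ms4a4b, a membrane protein of T cells, had 34.9, 7.54, 53.8 and 44.3 CPM. Without fibroblast and plasma cells Dcn had 3.16, 2.67, 1.12 and 27.7 CPM.

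**Figure D2:**
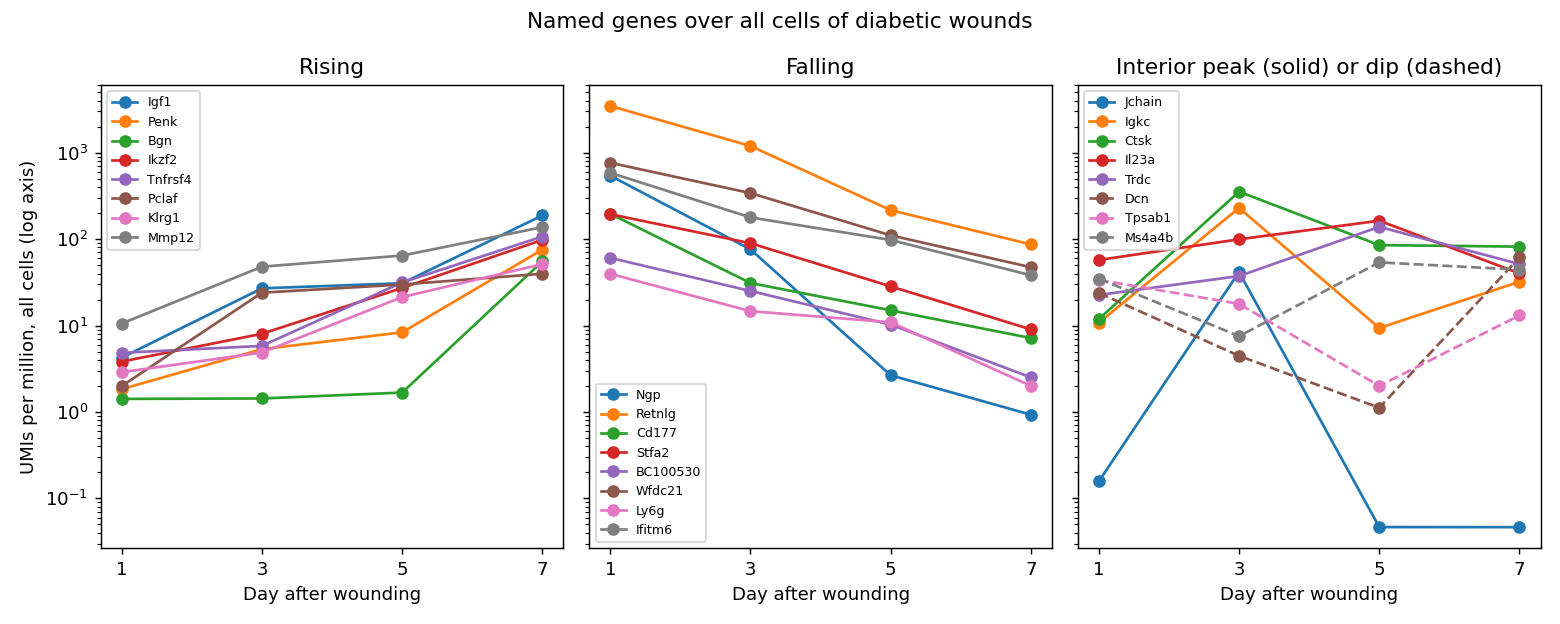
Level of the named genes over all cells of a library (CPM, log axis) against the day after wounding, 1 library per day. Ngp goes from 542 to 0.930 CPM and Igf1 from 4.25 to 188 CPM, and Il23a and Trdc are highest on day 5.

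Among lists of genes with a shared role, neutrophil granule proteins had the lowest median. Of 12 classified members 7 were falling, against 2.07% of all classified genes, and the median log2 of day 7 over day 1 was -3.07, or -2.01 at fixed make-up, against 0.55 for all genes. Lcn2, an iron-binding granule protein, had 1929, 556, 510.5 and 267 CPM, and Mmp8, the neutrophil collagenase, had 563, 210.0, 66.2 and 51.2 CPM. Lyz2 and Cybb, which macrophages also make, were flat at 6028, 7222, 4696 and 6047 and 628, 516, 420.4 and 633 CPM.

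Of 8 alarmins only S100a8 and S100a9 were falling, against 2.07% of all classified genes, a share that applies to each list here. The median log2 of the alarmins was -1.12, or -0.46 at fixed make-up. S100a8 had 9514, 3887, 3056 and 1212 CPM and S100a9 had 9395, 3809, 3245 and 1207 CPM, about an 8-fold difference in each. Of 10 inflammatory enzymes of macrophages, 3 were falling, and their median log2 was -1.01, or -0.29 at fixed make-up. Acod1, which makes itaconate, had 4009, 2144, 1819 and 688 CPM, Saa3, an acute phase protein, had 534, 452, 143 and 95.9 CPM, and Alox5ap, of leukotriene synthesis, had 1185, 1151, 738 and 574 CPM. Of 12 inflammatory cytokines, Csf3 and Il18 were falling, and Csf3, the growth factor of neutrophils, had 206, 79.4, 77.9 and 60.0 CPM.

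MHC class II genes, which present antigen to CD4 T cells, rose in 8 of 9 cases, against 10.8% of all classified genes, with a median log2 of 2.10 and of 0.84 at fixed make-up. H2-Aa had 1395, 4406, 5450.3 and 6640.0 CPM, Cd74, the invariant chain, had 1634, 3494, 4486 and 5995 CPM, and H2-DMb1 missed the 2-fold rule with 63.2, 101, 118 and 119 CPM. MHC class I and immunoproteasome genes were flat in 10 of 10 cases, as were 62.7% of all classified genes.

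T cell receptor and costimulation genes were rising in 6 of 15 cases, with a median log2 of 3.07 that went to 0.92 at fixed make-up. Icos had 48.6, 64.1, 309 and 512 CPM and Cd4 had 5.41, 10.8, 20.8 and 64.3 CPM. Ctla4, an inhibitory receptor, and Foxp3, the regulator of regulatory T cells, were lower on day 3 than on day 1 and so not called rising, with 4.36, 3.52, 34.4 and 141 CPM for Ctla4 and 2.0, 1.68, 11.2 and 58.8 CPM for Foxp3. Of 10 dead cell clearance genes 3 were rising, among them the receptor Axl with 13.5, 36.5, 58.6 and 76.6 CPM. Lipid handling genes were rising in 2 of 13 cases, near the 10.8% of all genes classified, and their median log2 was nearly the same as measured (1.28) and at fixed make-up (1.22).

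Il22, a cytokine that acts on epithelium, rose with 1.58, 2.58, 3.40 and 18.3 CPM, and Gata3, the regulator of type 2 T cells, rose with 6.04, 9.71, 33.2 and 71.4 CPM. Il5 peaked with 2.05, 12, 5.03 and 3.11 CPM. Of the 8 classified genes of this IL-17 and type 2 list the median log2 was 2.37, and 0.13 at fixed make-up. Ifng, or interferon gamma, rose with 2.15, 3.56, 14.4 and 21.6 CPM, while the cytotoxic granule genes Gzma, Gzmb and Prf1 dipped on day 3. Gzmb had 52.7, 22.8, 128 and 194 CPM. The 10 cytotoxic genes had a median log2 of 2.16 that lay at -0.17 at fixed make-up.

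Of 9 CXC chemokine genes for neutrophils, Cxcr2, their receptor, fell with 218, 204, 203 and 65 CPM and Cxcl5 dipped. Of 13 CC chemokine genes for monocytes none rose or fell, and Ccl7, Ccl12 and Ccl24 dipped, with 719, 454, 205 and 578 CPM for Ccl7. Of 10 dendritic cell and T cell chemokine genes, 3 rose, among them the receptor Ccr4 with 1.10, 2.42, 8.34 and 12.8 CPM and the ligand Cxcl16 with 149, 336, 362 and 416 CPM. These counts stand beside 10.8% rising, 2.07% falling and 1.42% dipping genes among all those classified. The median log2 values of the 3 lists were -0.57, -0.75 and 1.71, and -0.35, -0.44 and 0.28 at fixed make-up.

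For the other lists the counts stand beside 10.8% rising, 2.07% falling and 62.7% flat genes among all those classified. Cell cycle genes rose in 2 of 13 cases, Mcm5 and Pclaf, with a median log2 of 3.05, or 1.38 at fixed make-up. Without the osteoclast-like cluster 5 of the 13 rose. Heat shock genes rose in 1 of 11 cases, Hsp90ab1, with a median of 1.82. Igf1 was the only one of 11 growth factors to rise, Pdk1 the only one of 15 hypoxia and glycolysis genes, and Timd4 the only one of 12 resident macrophage receptors. Of 12 matrix proteases and inhibitors, Mmp12 rose, Mmp8 fell and Ctsk peaked. Itgam, the integrin chain CD11b, was the only one of 9 complement genes to fall, with 1268, 765, 731 and 489.9 CPM, and Sod2, the mitochondrial superoxide dismutase, the only one of 10 metallothioneins and antioxidants, with 1213, 873, 765 and 578 CPM. Inflammation brakes were flat in 8 of 10 cases and immediate early genes in 11 of 12.

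**Figure D3:**
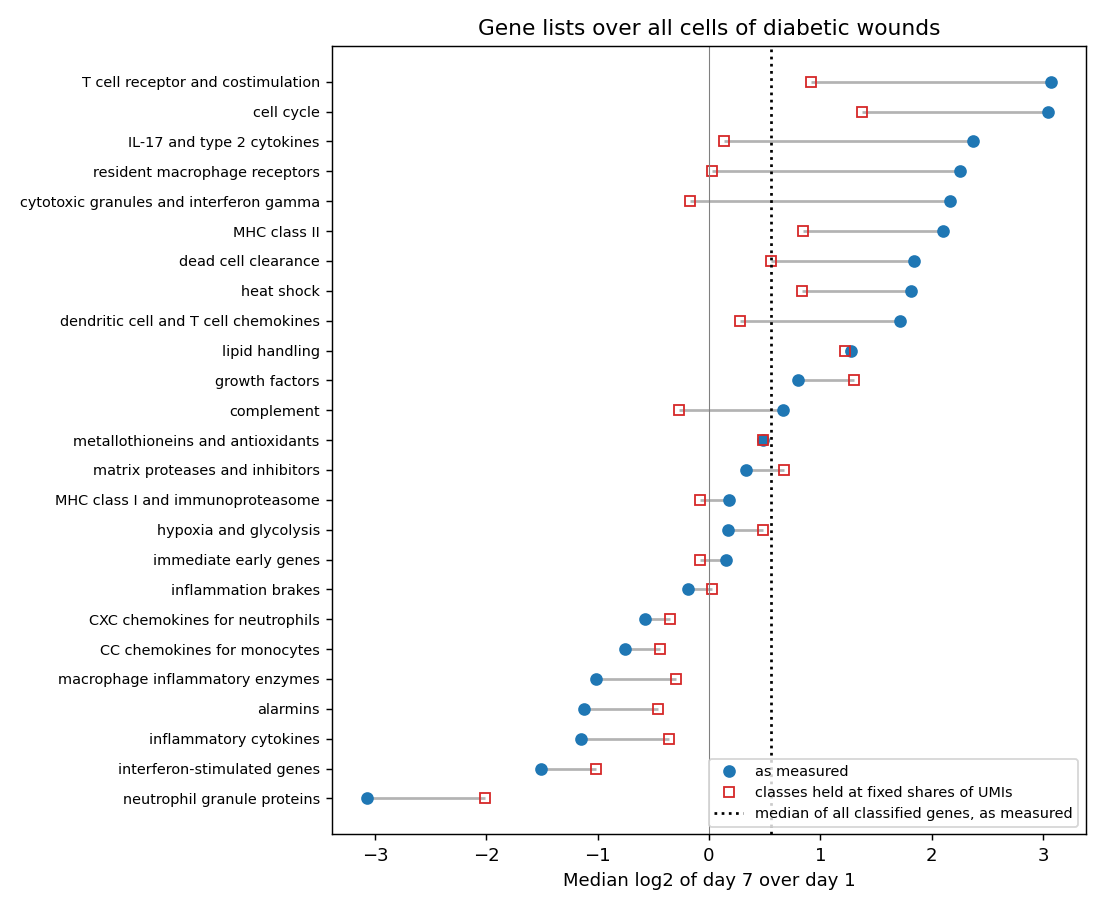
Median log2 of day 7 over day 1 for each of 25 gene lists over all cells, as measured (filled circles) and with the classes held at fixed shares of UMIs (open squares), beside the median of all classified genes (dotted line, 0.55). Granule proteins lie at -3.07 and MHC class II genes at 2.10 as measured, and most lists lie closer to 0 at fixed shares.

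Interferon-stimulated genes, which cells switch on when they sense interferon, were falling in 5 of 14 cases, against 2.07% of all classified genes. Their median log2 was -1.51, or -1.02 at fixed make-up. Isg15, a ubiquitin-like protein, had 353, 169, 148 and 105 CPM and was 3.35-fold (95% interval 3.20 to 3.52) higher on day 1. Usp18, which removes Isg15 from proteins, had 43.6, 15.9, 15.6 and 9.90 CPM, and Gbp2, a guanylate-binding protein, had 145, 129, 82.3 and 68.3 CPM. Rsad2, an antiviral enzyme, had 787, 192, 182 and 203 CPM and Ifit3 had 107, 28.8, 41.5 and 23.2 CPM, both at their highest on day 1 but not lower at each step.

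On day 1 these genes were high in 2 clusters. Cluster 11 of the monocyte-like class was led by interferon-stimulated genes and held 288, 16, 10 and 6 cells, so that 90.0% of it came from the library of day 1 and it may in part be a feature of that library. At resolution 1.6 the monocyte-like cluster led by such genes was larger, with 405, 132, 64 and 32 cells, of which 64.0% came from day 1. In monocyte-like cells Isg15 had 436, 215, 156 and 185 CPM, and without cluster 11 it had 210.3, 195, 141 and 157 CPM. Rsad2 had 972, 309, 202 and 289.8 CPM in the class and 282, 219, 150.4 and 222 CPM without the cluster. Of the 14 genes, 4 fell in the class with a median log2 of -1.42, against 1.53% falling and a median of 0.03 for all genes of the class, and without cluster 11 only Cmpk2 fell, 9 were flat and the median was -0.39.

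Cluster 9 of the neutrophil-like class was led by genes of the same kind and held 348, 122, 108 and 16 cells. In neutrophil-like cells 2 of 13 interferon-stimulated genes fell, with a median log2 of -1.37, against 2.55% falling and a median of 0.75 for all genes of the class. Without cluster 9, 0 of 12 did and the median was -0.48. In T and NK cell-like cells Isg15 had 139, 138, 96.3 and 57.6 CPM, and in dendritic cell-like cells it had 168, 160.3, 134 and 71.9 CPM. In macrophage-like cells Isg15 had 405, 124, 85.5 and 122 CPM. Of the listed genes, 1 of 10, 1 of 14 and 0 of 14 fell in these 3 classes. Of all genes classified there, 0.864%, 0.765% and 1.21% fell.

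**Figure D4:**
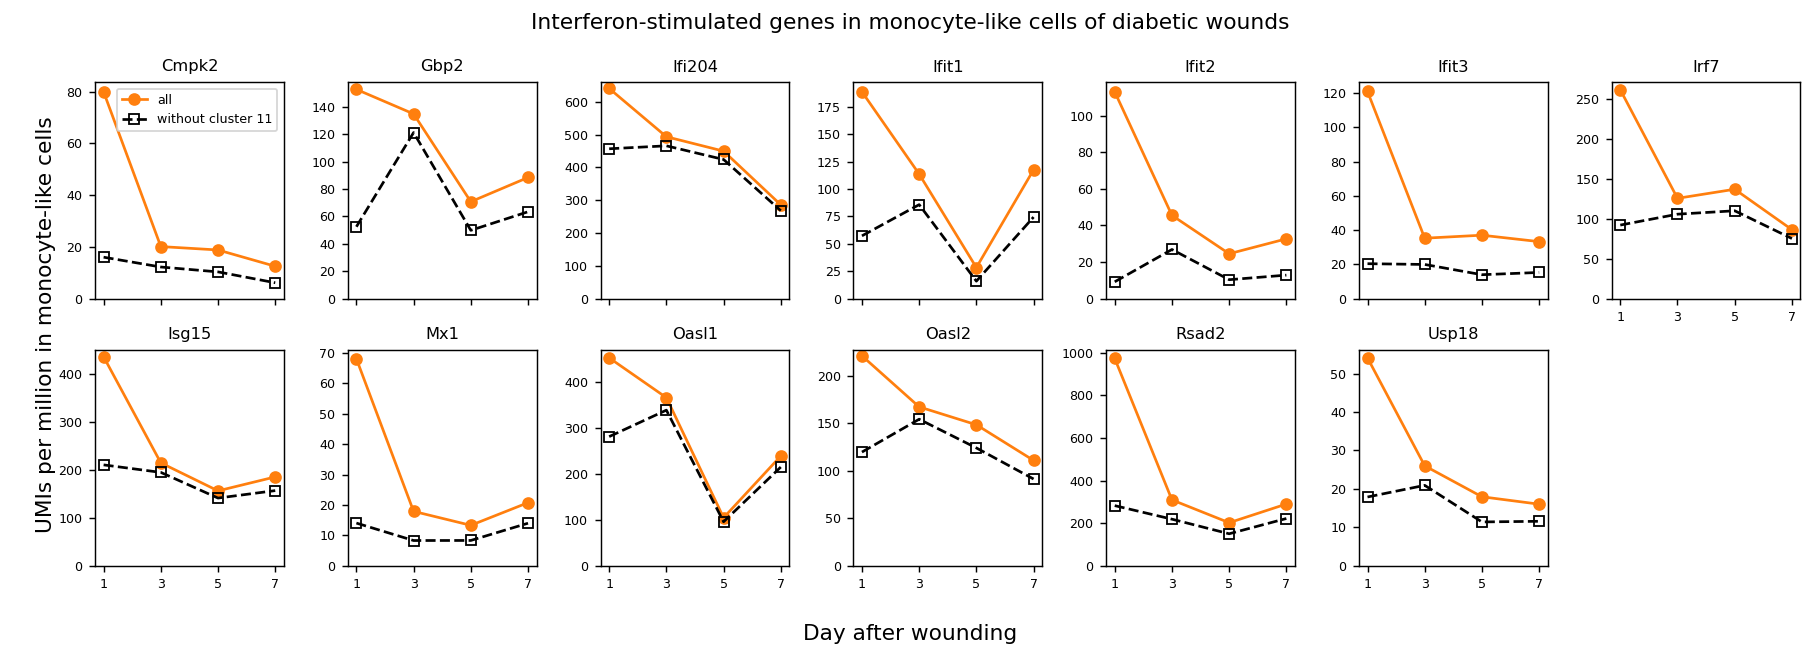
Level of 13 of the 14 interferon-stimulated genes in monocyte-like cells (CPM, linear axis from 0) against the day after wounding, for the whole class (filled circles) and without cluster 11 (open squares). Rsad2 is at 972 CPM on day 1 in the class and at 282 CPM without the cluster.

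Promoters of the genes that moved together were read from RefSeq (GRCm38.p6), from 250 bases before to 50 bases after the start of each gene. The core of the interferon response element was searched on both strands as GAAANNGAA. It was found in 8.56% of 32851 promoters. Its matches overlapped matches of the heat shock element core, TTCNNGAA, in 46 promoters. Of the 5 falling interferon-stimulated genes 3 had a promoter in the table, and Isg15 and Gbp2 held the core. The promoters of Isg15 (chr4:156200769-156201068 on the minus strand) and Gbp2 (chr3:142620413-142620712 on the plus strand) are shown because they are the falling members with a match, and that of Ifitm3 (chr7:141010695-141010994 on the minus strand), which fell in macrophage-like cells, for its pair of matches. Capitals mark the matches, which in Isg15 are 3 that overlap.
Isg15: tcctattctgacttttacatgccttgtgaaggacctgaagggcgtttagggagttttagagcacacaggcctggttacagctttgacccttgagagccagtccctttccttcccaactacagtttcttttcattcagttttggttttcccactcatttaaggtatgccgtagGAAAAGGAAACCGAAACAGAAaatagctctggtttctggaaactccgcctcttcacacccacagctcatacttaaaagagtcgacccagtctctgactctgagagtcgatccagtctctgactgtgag
Gbp2: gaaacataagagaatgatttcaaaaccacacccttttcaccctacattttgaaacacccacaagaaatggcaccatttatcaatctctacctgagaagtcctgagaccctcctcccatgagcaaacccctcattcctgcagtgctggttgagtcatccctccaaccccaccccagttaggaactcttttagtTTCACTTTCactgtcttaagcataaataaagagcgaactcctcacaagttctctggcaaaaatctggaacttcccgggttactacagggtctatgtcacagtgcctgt
Ifitm3: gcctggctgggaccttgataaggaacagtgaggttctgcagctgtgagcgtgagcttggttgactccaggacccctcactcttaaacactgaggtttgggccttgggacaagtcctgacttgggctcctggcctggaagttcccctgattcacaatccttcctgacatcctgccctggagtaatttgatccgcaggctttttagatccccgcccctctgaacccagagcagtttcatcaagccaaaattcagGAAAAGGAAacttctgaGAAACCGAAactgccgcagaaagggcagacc
The core was in 30 (16.9%) of the 178 falling genes with a promoter over all cells, and in 9.23% of all classified genes. Among falling genes of monocyte-like cells it was in 18 of 90, or 1 in 5, beside 9.15% of the genes classified there. Such a match describes letters in a window and is not evidence of a bound factor.

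The AP-1 motif TGANTCA, searched in the same way and found in 7.81% of promoters, was in 2 of the 5 named rising genes with a promoter, Igf1 (chr10:87860861-87861160 on the plus strand) and Mmp12 (chr9:7347124-7347423 on the plus strand), the growth factor and the elastase described above. These promoters are shown with the motif in capitals.
Igf1: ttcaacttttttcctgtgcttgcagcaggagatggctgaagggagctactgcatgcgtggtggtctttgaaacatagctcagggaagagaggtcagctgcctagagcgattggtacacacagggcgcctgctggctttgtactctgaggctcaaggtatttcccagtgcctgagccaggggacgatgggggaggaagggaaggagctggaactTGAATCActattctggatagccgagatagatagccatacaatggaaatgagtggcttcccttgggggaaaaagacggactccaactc
Mmp12: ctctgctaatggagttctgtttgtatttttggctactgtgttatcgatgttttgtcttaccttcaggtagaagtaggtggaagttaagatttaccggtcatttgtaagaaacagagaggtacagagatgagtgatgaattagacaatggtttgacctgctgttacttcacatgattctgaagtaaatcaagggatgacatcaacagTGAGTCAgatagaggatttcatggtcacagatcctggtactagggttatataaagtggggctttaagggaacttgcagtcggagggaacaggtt
Over every rising gene with a promoter the AP-1 motif was in 42 of 955 (4.40%), below the 6.47% of all classified genes. The NF-kB motif GGANTTTCC was in 1.25% of promoters and in 0 of the 5 rising and 6 falling named genes of all cells that had a promoter in the table.

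Within neutrophil-like cells, 7750 genes were classified. Of these, 1541 were rising (19.9%), 198 were falling (2.55%) and 37 peaked (0.477%), and the median gene was higher on day 7 by a log2 of 0.75. With the scaling on the median gene the split was 678 rising and 940 falling genes, so the balance of rising and falling genes in this class depended on the scaling. The class changed its clusters as well, since cluster 2 held 73.2% of it on day 7 and 7.59% on day 1, and cluster 8 held 424, 221, 1 and 0 cells.

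Markers of other cell types moved with the rising genes. In neutrophil-like cells the 8 neutrophil markers summed to 64822, 33491, 25015 and 17909 CPM, while the 9 macrophage markers summed to 419, 2377, 2426 and 6015 CPM and the 9 dendritic cell markers to 1075, 4924, 7083 and 12090 CPM. None of the markers of these 3 lists was at 0 in the class. In T and NK cell-like cells, which should lack all 3 types, the same sums were 3488, 2307, 1567 and 1254 CPM for neutrophil markers, 799, 3218, 913 and 3257 CPM for macrophage markers, and 1561, 3274, 3179 and 6329 CPM for dendritic cell markers. When cells were named singly from their own markers instead of by cluster, 247 genes rose in place of 1541. The part of other cells or of free RNA in the rises was not tested beyond this.

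The 5 rising genes named in neutrophil-like cells were Mmp12, Igf1, Fbxo32, Lpl and Pdgfa. Mmp12 had 2.29, 12, 109.8 and 309 CPM in the class, but 1.10, 5.44, 9.79 and 34.1 CPM in cells named singly. On day 5, 1 cell held 66.4% of its UMIs, and without the top cell of each day the class had 1.29, 7.27, 36.9 and 255 CPM, which still rose. Igf1 had 0.716, 2.52, 11.8 and 102 CPM and was found in 77 of 790 cells on day 7. Lpl, which releases fatty acids from lipoproteins, had 5.87, 96.2, 110.3 and 365 CPM, and in cells named singly 3.30, 12.5, 11.4 and 57.5 CPM. Fbxo32, a ubiquitin ligase, and Pdgfa, a platelet-derived growth factor, rose from 0.286 to 49 CPM and from 0.573 to 49.4 CPM. Without the top cells Fbxo32 had 0.143, 7.13, 13.5 and 31 CPM. All 5 were under 6 CPM on day 1. Cxcl1, a chemokine that draws neutrophils, also rose, with 1034, 1502, 2335 and 3892 CPM in the class, and was flat in cells named singly with 945, 943, 1474 and 1655 CPM.

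The lists that follow stand beside 19.9% rising genes among all those classified in the class. MHC class II genes were rising in 7 of 8 cases with a median log2 of 3.41, and H2-Aa had 333, 1750.1, 2537 and 4303 CPM. Lipid handling genes were rising in 7 of 13 cases, among them Apoe with 110.4, 1116, 1136 and 2779.9 CPM, but in cells named singly Apoe had 86.5, 822, 362 and 1666 CPM. T cell receptor and costimulation genes, which neutrophils should lack, were rising in 6 of 10 cases, and Cd3e had 2.15, 3.08, 9.20 and 27.2 CPM. Growth factors were rising in 5 of 11 cases and complement genes in 3 of 9. In cells named singly the rising genes were 4 of 6 for MHC class II, 3 of 12 for lipid handling, 3 of 5 for the T cell list, 2 of 8 for growth factors and 0 of 8 for complement, against 3.98% of all 6212 genes classified there. In cluster 2 alone, where 4.36% of all genes were rising, 6 of 12 lipid handling genes and 0 of 7 MHC class II genes were, the latter with a median log2 of 1.89 against 0.30 for all genes. In cluster 1 alone, where 13.1% of all genes were rising, 4 of 6 MHC class II genes and 3 of 12 lipid handling genes were. In T and NK cell-like cells, which should lack them, Apoe had 137, 1432, 488 and 1717 CPM and H2-Aa had 508, 1117, 1028 and 2140.1 CPM.

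The falling genes of the class were Ngp, Cd177, Ggt1, Retnlg and Itgb2l. Ngp had 1411, 233, 7.91 and 5.45 CPM, and without cluster 8 it had 103, 41.3, 6.91 and 5.45 CPM, a smaller fall in the same direction. Retnlg had 8890.5, 3541, 619 and 457 CPM, and 3632, 1901, 604 and 457 CPM without cluster 8. Cd177 had 358, 64.7, 24.3 and 9.53 CPM, and 58.3, 24.6, 23.9 and 9.53 CPM without it. Ggt1, a glutathione-degrading enzyme, had 26, 3.64, 0.719 and 0 CPM, and Itgb2l, an integrin chain of neutrophils, had 30.9, 5.45, 4.03 and 0.341 CPM. Without cluster 8 these 2 had too few UMIs to be classified.

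The alarmins S100a8 and S100a9 fell in neutrophil-like cells and also in the other 4 classes. In neutrophil-like cells S100a8 had 23754, 10908, 8298 and 6188 CPM, and in T and NK cell-like cells it had 1260.2, 916, 538 and 404 CPM. The decrease was 3.84-fold in the former and 3.12-fold in the latter. Of 6313 genes classified in all 5 classes, 3 fell in each of them, namely S100a8, S100a9 and Wfdc21, all abundant in neutrophils. T and NK cell-like cells should lack them, so the part of free RNA in these falls is a question that was not tested.

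Acod1 fell in neutrophil-like cells with 8852, 5699, 4889 and 3382 CPM, and fell within cluster 1 alone with 9531, 6060.1, 6056 and 2632 CPM. Mmp9, the gelatinase, had 889.8, 698, 354 and 217 CPM. Lyz2 went the other way with 1623, 2694, 3024 and 6034 CPM.

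Il23a, Slc40a1 and Gm42418 peaked on day 5 in neutrophil-like cells. Il23a had 139.6, 287, 440.0 and 183 CPM, with UMIs in 500 of 2009 cells on day 5. It leads cluster 1, which held 52.7% of the class on that day, and within cluster 1 alone it had 405, 972, 825 and 423 CPM, highest on day 3. At the finer clustering (resolution 1.6) it no longer peaked in the class, since the log2 of its highest inner day over the higher end day was -0.18. There the cluster led by Il23a, of 246, 561, 623 and 203 cells, stayed unnamed and so lay outside the class. Slc40a1, the iron exporter ferroportin, had 36.4, 96.1, 101 and 39.8 CPM and peaked within clusters 1 and 2 as well. Gm42418, whose annotation covers ribosomal RNA sequence, had 1211, 2193, 3259 and 1406 CPM.

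**Figure D5:**
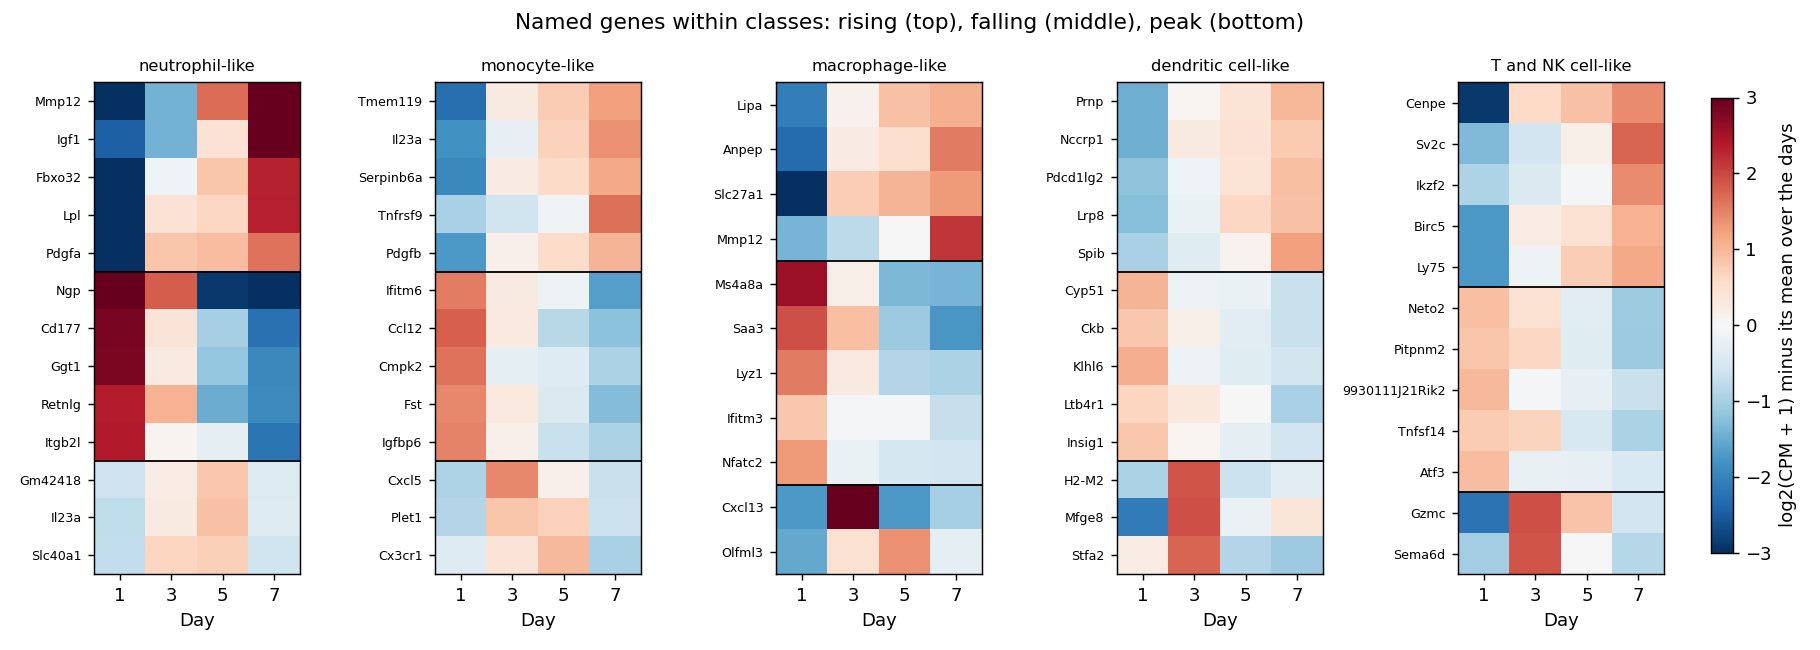
Named genes of each class on days 1, 3, 5 and 7, 1 library per day, as log2(CPM + 1) minus its mean over the days (colour scale, -3 to 3, larger values shown at the end of the scale). Lines divide each class into genes that rise (top), fall (middle) and peak (bottom).

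In monocyte-like cells 7972 genes were classified, and 147 were rising (1.84%), 122 falling (1.53%) and 41 peaking (0.514%). The median gene moved by a log2 of only 0.03. Cxcl1 rose from an already high level, with 4854, 7065, 8512 and 12596 CPM. Without cluster 11 it still rose. At resolution 1.6 a monocyte-like cluster led by Vcan, Chil3 and Plac8 held 903, 202, 156 and 6 cells. Another, with Cxcl1 among its leading genes, held 356, 278, 195 and 150 cells. The part of this change in the rises, falls and peaks of the class was not tested.

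Il23a rose in this class, with 10.7, 33.7, 66.1 and 107 CPM, while it peaked in neutrophil-like cells. Tnfrsf9, the costimulatory receptor 4-1BB, had 24.9, 32.7, 46.3 and 159.8 CPM and was found in 105 of 217 cells on day 7. Pdgfb, a platelet-derived growth factor, had 3.11, 14.2, 18.8 and 26.7 CPM, and Serpinb6a, a protease inhibitor, had 8.15, 40.6, 51.4 and 76 CPM. Tmem119, best known from microglia, had 1.72, 14.8, 21 and 29.7 CPM. The cells behind these values on day 7 were few, from 20 with a UMI of Pdgfb to 105. Tnfrsf9 also rose in neutrophil-like, macrophage-like and T and NK cell-like cells, in the last from 371 to 963 CPM. In monocyte-like cells, macrophage markers summed to 3506, 8091, 5449 and 7898 CPM. Dendritic cell markers there summed to 1875, 6851, 6433 and 8508 CPM, and fibroblast markers to 10.8, 8.28, 10.1 and 236 CPM. The part of other cells or of free RNA in these rises was not tested.

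The genes that fell in monocyte-like cells were Ifitm6, Ccl12, Cmpk2, Fst and Igfbp6. Ifitm6 had 338, 141, 105 and 36.2 CPM, and Ccl12, a chemokine for monocytes, had 229, 80.8, 36.2 and 27.3 CPM. On day 5, 1 cell held 43.6% of the UMIs of Ccl12, and without the top cells it had 219, 69.6, 20.4 and 25.5 CPM. Cmpk2, an interferon-stimulated kinase, had 79.9, 20.1, 18.8 and 12.5 CPM, or 16, 12.2, 10.3 and 6.10 CPM without cluster 11. Fst, the activin inhibitor follistatin, had 37.1, 16.2, 9.53 and 4.75 CPM from 76 cells on day 1 and 4 on day 7, and Igfbp6, which binds insulin-like growth factors, had 49.6, 19.1, 10.3 and 8.32 CPM.

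Peaks in this class were Plet1 with 31.5, 105, 95 and 37.4 CPM, Cx3cr1, the fractalkine receptor of patrolling monocytes, with 8.48, 15.2, 23.1 and 5.35 CPM, and Cxcl5, a chemokine for neutrophils, with 15.8, 86.5, 34.6 and 19 CPM. For Cxcl5, 1 cell held 64.9% of the UMIs of day 3, and without the top cells it had 11.2, 30.3, 3.81 and 5.94 CPM.

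Macrophage-like cells numbered 50 on day 1, so their values on that day are the least certain. Of 7783 genes 164 were rising (2.11%), 94 falling (1.21%) and 24 peaking (0.308%). At resolution 1.6 a macrophage-like cluster led by Fcrls, Selenop and Ms4a7 held 20, 473, 131 and 218 cells. Another, led by Ccl8, Cd163 and C4b, held 31, 215, 40 and 342 cells. The part of this change in the rises, falls and peaks of the class was not tested. Lipa, the lysosomal acid lipase, had 74.5, 352, 593 and 666 CPM, 8.93-fold (95% interval 5.84 to 14.4) higher on day 7. Slc27a1, a fatty acid transporter, had 3.55, 59.7, 73.2 and 87.3 CPM, and Anpep, the surface aminopeptidase CD13, had 10.6, 67, 79.9 and 167 CPM. Mmp12 had 10.6, 17, 30.1 and 136 CPM, and like Slc27a1 it was found in 1 cell on day 1. Of 13 lipid handling genes 3 rose in the class, and their median log2 was 2.58, against 0.09 for all genes. Igf1 was lower on day 3 than on day 1 there and was not called rising.

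Saa3 fell in macrophage-like cells, with 1185, 585, 146 and 91.6 CPM. Ifitm3, an antiviral membrane protein, had 1955, 1090.0, 1074 and 698 CPM and UMIs in 94.0% of cells on day 1. Ms4a8a had 351, 65.2, 22.1 and 21.5 CPM, Nfatc2, a transcription factor, had 110.0, 38.9, 30.7 and 29.4 CPM, and Lyz1 had 298, 119.6, 54.1 and 50.9 CPM, the last uncertain because its sequence is close to that of Lyz2. Without the top cell of each day, Ifitm3 still fell at each step and the other 4 did not, among them Saa3 with 1022, 473, 56.6 and 82.3 CPM and Lyz1 with 92.3, 102, 19.1 and 40.0 CPM.

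Peaks of this class included Olfml3 with 14.2, 59.4, 112 and 34.6 CPM and Cxcl13, a B cell chemokine, with 0, 72.3, 0 and 0.661 CPM. Cxcl13 came from 32 of 668 cells on day 3, and its 0 of 50 cells on day 1 allows a share as high as that of day 3. Olfml3 was in 2 of 50 cells on day 1. These peaks therefore rest on very few cells at their start.

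In dendritic cell-like cells 7971 genes were classified. Of these 166 were rising (2.08%), 61 falling (0.765%) and 37 peaking (0.464%). Prnp, the prion protein, had 93.4, 267, 343 and 517 CPM and was 5.54-fold (95% interval 4.69 to 6.57) higher on day 7, in cluster 5 alone (93.7, 200.5, 216 and 386 CPM) and in cluster 12 alone (84.5, 578, 854 and 1099 CPM). Pdcd1lg2, the checkpoint ligand PD-L2, had 19.8, 43, 62.2 and 88.7 CPM and rose in both clusters too. Nccrp1 had 11.1, 39.4, 44 and 56.4 CPM, Lrp8, a lipoprotein receptor, had 15.5, 33.7, 60.5 and 72.1 CPM, and Spib, a transcription factor, had 11.1, 17.6, 24.7 and 54.8 CPM. Nccrp1, Lrp8 and Spib are given for the class only, in which cluster 12 held 9.24%, 17.4%, 18.3% and 17.4% of the cells. At resolution 1.6 a dendritic cell-like cluster led by Mfge8, Mgl2 and Cd207 held 27, 252, 178 and 443 cells. Another, led by Cd209a and Klrb1b, held 181, 160, 291 and 34. The part of this change in the patterns of the class and of cluster 5 was not tested.

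Of the 5 falling genes, Cyp51 and Insig1 belong to sterol synthesis and its control, and had 120.0, 51.9, 51.1 and 36.5 CPM and 102, 60.3, 46.8 and 38.6 CPM. Ckb, a creatine kinase, had 246, 159, 111 and 86.9 CPM, Ltb4r1, the leukotriene B4 receptor, had 36.5, 28.7, 22.9 and 11.1 CPM, and Klhl6 had 47.6, 19.4, 16.8 and 14.8 CPM. Ltb4r1 no longer fell when cells were thinned to 1000 UMIs each, and Cyp51 no longer fell at each step without the top cells.

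Several genes of the class peaked on day 3. Mfge8, a bridging protein that marks dead cells for uptake, had 32.8, 555, 125 and 186 CPM, and it led 1 of the finer clusters above. Hmox1, the heme-degrading oxygenase, had 221, 1051, 666 and 473 CPM, and the antioxidant genes Srxn1 and Gclm followed the same course with 68, 199, 157 and 95.9 CPM and 19.8, 53.4, 39.9 and 25.2 CPM. These were 3 of 9 classified genes of the list of metallothioneins and antioxidants. In T and NK cell-like cells Hmox1 had 308, 651, 299 and 459 CPM. H2-M2 had 8.66, 68.7, 11 and 14.1 CPM, and Stfa2 had 27.2, 81.2, 12.3 and 10.4 CPM with 66.2% of the UMIs of day 3 in 1 cell, and was no longer a peak without the top cells.

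Among T and NK cell-like cells 7409 genes were classified, with 138 rising (1.86%), 64 falling (0.864%) and 58 peaking (0.783%). Cluster 7 held 72, 95, 338 and 636 of the cells, and cluster 10, led by Il17f, Trdc and Il17a, held 49, 92, 246 and 145. Ikzf2 had 88.3, 124, 163 and 450.0 CPM in the class, 5.09-fold (95% interval 3.79 to 7.01) higher on day 7. Within cluster 7 it had 118, 215, 214 and 503 CPM, level between days 3 and 5. Foxp3 had 56.9, 26.4, 71.2 and 261 CPM and Ctla4 had 141, 66.6, 214 and 674 CPM, both lowest on day 3. Beside them, Foxp3 reached 19.4 CPM and Ctla4 22.8 CPM in neutrophil-like cells on day 7, which should lack both.

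Of 13 cell cycle genes 2 rose in the class, Birc5 and Ccnb2, 8 varied in another way and 3 were flat, with a median log2 of 1.64 against 0.06 for all genes. Birc5, or survivin, had 13.7, 55.1, 65.6 and 98.7 CPM, and Cenpe, a kinetochore motor, had 1.96, 32.1, 38.9 and 57.4 CPM. Sv2c, a vesicle protein, had 9.81, 17.2, 29.7 and 89.8 CPM, and Ly75, the uptake receptor DEC-205, had 5.89, 19.5, 36.6 and 49 CPM. On day 1 Cenpe was in 1 cell, Ly75 in 2 and Birc5 in 3.

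Falling genes of the class were Neto2 with 62.8, 45.9, 26.4 and 15.2 CPM, Pitpnm2 with 64.8, 56.2, 28 and 16.5 CPM, Tnfsf14, the costimulatory ligand LIGHT, with 96.2, 90.7, 40.2 and 28.8 CPM, Atf3, a stress-induced transcription factor, with 416, 185, 182 and 159 CPM, and 9930111J21Rik2 with 145, 71.1, 61.4 and 45.6 CPM. Atf3 also fell in macrophage-like cells (1253, 609, 601 and 535 CPM) and dendritic cell-like cells (528, 416, 268 and 231 CPM). Its largest step was between days 1 and 3 in T and NK cell-like and macrophage-like cells.

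Of 8 IL-17 and type 2 cytokine genes 3 peaked in the class and 1 dipped, and of 10 cytotoxic genes 2 peaked and 2 dipped. Of all genes classified in the class, 0.783% peaked and 2.39% dipped. Gzmc, a granzyme, had 35.3, 647, 303 and 113 CPM from 5, 25, 55 and 57 cells, and within cluster 7 46.8, 1208, 412 and 128 CPM. Without the top cells the class had 13.7, 551, 232 and 74.9 CPM of Gzmc. Il5, the eosinophil growth factor, had 72.6, 293, 32.7 and 15.2 CPM, and Il13, of the same type 2 response, had 5.89, 43.6, 4.62 and 13.1 CPM. Xcl1, a chemokine for dendritic cells, had 185, 500.3, 359.5 and 237 CPM, and Il23r, the receptor of IL-23, had 39.3, 80.3, 87.4 and 43.5 CPM. Sema6d had 21.6, 172, 46.5 and 24.9 CPM. Trdc, which peaked over all cells, did not meet the rule for a peak within the class, with 583, 796, 855 and 214 CPM.

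Of the 6313 genes classified in all 5, 6 rose in 4 classes and 0 in all 5. Among the 6, Itgav, an integrin chain that takes part in dead cell uptake and TGF-beta activation, had 129, 221, 276 and 293 CPM in monocyte-like cells and 60.3, 157, 169 and 199 CPM in macrophage-like cells. Cd3e rose in the 4 classes that should lack it, from 2.15 to 27.2 CPM in neutrophil-like cells, while in T and NK cell-like cells it had 503, 291, 343 and 366 CPM. Igkc peaked in the same 4 classes on day 3. Cells with over 1% of their UMIs in plasma cell markers numbered 1, 4, 0 and 1 on days 1, 3, 5 and 7, and their part in the peaks was not tested.

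The control wounds of the same days were read with the same rule and not tested against the diabetic ones. Of 11826 genes classified there, 802 (6.78%) were rising, 85 (0.719%) falling and 345 (2.92%) peaking. Igf1 had 7.71, 27.6, 263 and 277 CPM in control wounds, and the largest difference in CPM between neighbouring days lay between days 3 and 5 there and between days 5 and 7 in diabetic wounds. Ngp had 39.9, 25.9, 4.35 and 2.25 CPM, Retnlg had 2456, 499.9, 21.1 and 57.3 CPM and Wfdc21 had 459, 133, 11.8 and 40.9 CPM, and on day 5 Retnlg and Wfdc21 were lower than in the diabetic library and Ngp was higher. Il23a had 149, 73.2, 5.10 and 5.98 CPM and did not peak. Penk had 0.957, 16.5, 19.1 and 17.8 CPM and Ikzf2 3.56, 14.8, 11.9 and 26.6 CPM, both lower on day 7 than in the diabetic library. Interferon-stimulated genes were falling in 5 of 14 cases with a median log2 of -1.49, close to the diabetic -1.51.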

How the data were processed

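Wound leukocytes were profiled as single cells, with 1 library of 5 pooled mice per group and day. The authors deposited 1 table per library, in which each cell has its unnormalised UMI counts, gene by gene. The submitters' processing notes name fastp 0.20.1 and build mm9, while the study's methods name a later Ensembl annotation, and the series record and the methods differ on the droplet or microwell platform, so gene models and chemistry are uncertain. The labels do not map libraries to litters or days of work.

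Barcodes with over 200 genes other than mt- genes and under 20% mt- UMIs were kept. Counts were scaled to 10000 per cell, 2000 variable genes and 10 principal components were used, and cells were clustered with Leiden (resolution 0.8, 30 neighbours), which gave 15 clusters, 14 of them named from markers. Scrublet called only 20 of 18022 cells (0.111%) as doublets and cannot be said to have worked, so doublets were kept. Cells with over 1% of UMIs from fibroblast or plasma cell markers were set apart, and T and NK cells were pooled, both decided after seeing the data. The members and the 25 gene lists were chosen with earlier results of these data known.

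Summed counts were scaled to CPM over genes other than mt- genes. Patterns used a 2-fold threshold and at least 100 UMIs (tested on simulated data), and exact 95% conditional binomial intervals. Named genes were the 8 rising, 8 falling, 5 peak and 3 dip genes with the largest lower bound among those of at least 1000 UMIs. In each class they were 5 rising, 5 falling and 3 peak genes of at least 200 UMIs whose level there reached 0.5 of that in all cells, plus list members in a pattern. A few genes named by this rule are not reported here. Python 3.11.15, numpy 2.4.6, scipy 1.17.1, pandas 2.3.3, scanpy 1.11.5, leidenalg 0.10.2 and matplotlib 3.10.9 were used. Alternatives covered filters, doublets, scaling, thinning to 1000 UMIs (687, 564, 396 and 429 shallower cells left out by day), clustering, single-cell naming, thresholds and left-out days or clusters.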

Additional observations from a re-analysis of the deposited data

How the results depend on the processing

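With 1 library a day, depth, the pool of mice and the day cannot be told apart, and genes under 100 UMIs were not classified. Counts that stayed within 1.5 times are not repeated here. A 3-fold threshold left 583 rising, 133 falling, 17 peak and 68 dip genes in all cells. By class, in the order rising, falling and peak, it left 1006, 78 and 2 in neutrophil-like cells, 54, 57 and 5 in monocyte-like cells, 97, 40 and 7 in macrophage-like cells, 69, 12 and 7 in dendritic cell-like cells, and 71, 26 and 14 in T and NK cell-like cells. A minimum of 500 UMIs left 713 rising, 14 peak and 54 dip genes in all cells, 597 rising and 9 peak genes in neutrophil-like cells, 37, 61 and 6 in monocyte-like cells, 96, 40 and 7 in macrophage-like cells, 35, 22 and 6 in dendritic cell-like cells, and 24, 16 and 12 in T and NK cell-like cells. With cells thinned to 1000 UMIs, all cells had 19 peak and 55 dip genes, neutrophil-like cells 306 rising and 72 falling genes, monocyte-like cells 40, 64 and 13, macrophage-like cells 31, 28 and 9, dendritic cell-like cells 44, 32 and 13, and T and NK cell-like cells 31, 28 and 18.

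Median-of-ratios scaling gave 448 rising and 581 falling genes in all cells, and 678 rising, 940 falling and 14 peak genes in neutrophil-like cells. Fixed class make-up gave 293 rising and 297 dip genes. Without cluster 8, 24 genes peaked in neutrophil-like cells. With cells named singly, neutrophil-like cells had 247 rising, 93 falling and 61 peak genes, and macrophage-like cells had 50 peak genes. The share on day 7 minus that on day 1, in percentage points, then was -35.8 for neutrophil-like cells (-29.9 by cluster), -24.8 for monocyte-like cells (-29.8), 23.1 for macrophage-like cells (15), 14.7 for dendritic cell-like cells (10.3) and 21.4 for T and NK cell-like cells (18.9). With at least 500 genes per cell, the monocyte-like difference was -27.9 and the macrophage-like one 16.3. At resolution 0.4, the macrophage-like difference was 29.1, the dendritic cell-like one 12.2, and 62 genes peaked in monocyte-like cells.

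Added after seeing the data, the rule without day 3 gave 2628 rising and 478 falling genes in all cells, 3019 and 332 in neutrophil-like, 347 and 258 in monocyte-like, 350 and 241 in macrophage-like, 420 and 159 in dendritic cell-like, and 404 and 179 in T and NK cell-like cells. Without day 5 these were 2585 and 499, 3042 and 329, 361 and 270, 401 and 316, 410 and 164, and 363 and 151, with fewer steps to meet. Among named genes, 2 turned direction, Il23a in neutrophil-like cells at resolution 1.6 (-0.18 as the log2 of the peak over the higher end day), where the cluster led by Il23a was unnamed and so left the class, and Ltb4r1 in dendritic cell-like cells with thinning (a log2 of 0.000688). The cause was not tested for Ltb4r1. Of the other values for named genes, 160 moved, out of the counting interval of their fold or, for peaks and dips, by a factor of at least 5/4, and 665 did not. Each day and condition had 1 library, all numbered as replicate 1. No analysis paired by day was run, and the values come from no test. Libraries of the same day in diabetic and control wounds were set side by side and not tested.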

Other observations

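In monocyte-like cells, Ccr7, the receptor for lymph node homing, had 7.83, 15.8, 19.3 and 36.2 CPM on days 1, 3, 5 and 7, and Ccl22, which attracts regulatory T cells, had 5.90, 20.3, 39.7 and 46.3 CPM. Abca1, a cholesterol exporter, had 344, 655, 692 and 893 CPM. Cfp, the complement factor properdin, fell with 355, 315, 207 and 138 CPM, and Ccl6 fell with 3393, 1434, 1289 and 1079.8 CPM. The 9 dendritic cell markers summed to 1875, 6851, 6433 and 8508 CPM in the same cells, and their part in the rises was not tested.

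In macrophage-like cells, Cd300a, an inhibitory receptor for dying cells, rose with 42.6, 158, 160.5 and 185 CPM, and Cxcr4 rose with 110.0, 286, 403 and 410.2 CPM. In dendritic cell-like cells, Ccl8, which leads the macrophage-like cluster, rose with 4.33, 35.5, 61.8 and 228 CPM. The 9 macrophage markers summed to 394, 2007, 1274 and 3189 CPM in these cells, and their part in the rise was not tested. Csf1, the macrophage growth factor, fell in dendritic cell-like cells with 43.3, 43, 29.9 and 20.8 CPM. It was also among the leading genes of neutrophil-like cluster 1. The 8 neutrophil markers summed to 3818, 3442, 3012 and 2150 CPM in dendritic cell-like cells, and their part in the fall was not tested. Axl peaked in dendritic cell-like cells with 25.4, 28.1, 75.9 and 35.8 CPM, while over all cells it rose.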
